A study of Mus musculus with 80 samples.

Results

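The comparison concerns 8 frozen liver libraries of the 80 libraries in the series: 4 from mice fed 3000 ppm di(2-ethylhexyl) phthalate (DEHP) and 4 from mice fed 1500 ppm. They were chosen by the dose and preparation in their labels and not by any measured value. The question is which genes still differ between these doses when the liver already responds at the lower one. DEHP is a plasticizer, given here in the feed for 7 days to 4-week-old males of B6C3F1, a hybrid cross common in toxicology. The animals at 1500 ppm were 3A, 40A, 60A and 72B, and those at 3000 ppm were 35A, 67C, 71A and 9A, each liver giving 1 library from mixed lobes. Control feed (32A, 45C, 63A and 75A) and 6000 ppm (29B, 44A, 64C and 8C) supplied 4 frozen libraries each, and formalin-fixed, paraffin-embedded (FFPE) tissue of the same 16 animals was sequenced as well. The other samples of the series, from mice given dichloroacetic acid, were not used here.

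DEHP is broken down in the gut and liver to a monoester that activates PPARα, a nuclear receptor that senses fatty acids in the hepatocyte. PPARα binds DNA with the retinoid X receptor and switches on genes for fatty acid uptake, for activation to acyl-CoA, for breakdown in peroxisomes and mitochondria, and for omega-hydroxylation by Cyp4a enzymes. In rodents, strong activators enlarge the peroxisome compartment and the liver. Phthalates can also activate CAR and PXR, receptors that induce drug-metabolising Cyp2b, Cyp2c and Cyp3a enzymes.

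Total gene counts were 20071851 to 29550616 at 1500 ppm and 16582951 to 27114793 at 3000 ppm. Levels are CPM, counts scaled to a common library size with TMM, which equalises libraries by the bulk of their genes. Albumin transcript (Alb) stood between 36440 and 50730 CPM in all 8 libraries, and all 15 genes of a liver identity list were above the filter. Summed markers of Kupffer cells spanned 153 to 279 CPM at 1500 ppm and 148 to 389 CPM at 3000 ppm, those of endothelium 370 to 444 and 332 to 425 CPM, and those of stellate cells 331 to 447 and 379 to 409 CPM. Red blood cell markers spanned 144 to 204 CPM at 1500 ppm and 99.6 to 156 CPM at 3000 ppm. Of 5 tested, 1 was lower without overlap (3.89% of all genes were). This was Hba-a2, a haemoglobin gene (log2 difference -0.71 ± 0.38, edgeR adjusted p = 0.373). The 5 differences ran from -0.81 to 0.385, and 0 had an unadjusted edgeR p under 0.05. Lymphocyte markers spanned 11.5 to 21.2 and 16 to 33.6 CPM. The part of these cells in the results was not tested. Neutrophil markers summed to at most 3.77 CPM and skeletal muscle markers to at most 0.422 CPM in the 8 libraries. In whole tissue, fewer cells of a type and less RNA per cell cannot be told apart.

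Library 67C stood apart from the others before any gene was compared. On the second principal component of the 16 frozen libraries it lay at -36.7, where the other 15 spanned -17.4 to 15.6. Genes of high GC content were low in it: the median deviation of GC-rich genes minus that of GC-poor genes was -0.77 on the log2 scale, against -0.07 to -0.22 in the other libraries at 3000 ppm and -0.14 to 0.35 at 1500 ppm. Frozen and FFPE libraries of 35A (r = 0.065) and 67C (r = 0.10) correlated poorly across genes, and each correlated better with another animal's fixed tissue. With the GC trend of each library removed, every one of the 8 animals correlated best with its own partner (r from 0.331 to 0.674 over 8388 genes). 35A then reached 0.402 and 67C 0.524. Both libraries were kept, and gene list counts without 67C are given beside the lists. Without it, 2.6% of all genes had an unadjusted p under 0.05 on the higher side and 4.58% on the lower, against 7.59% and 7.79% with it.

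No gene passed the test between 3000 and 1500 ppm. In edgeR's quasi-likelihood test over all 4 frozen dose groups (16 libraries), 0 of 13802 genes had a Benjamini-Hochberg adjusted p under 0.05 (0%), and the smallest adjusted p was 0.234. At an unadjusted p under 0.05 there were 2122 genes (15.4%), 1047 higher (7.59%) and 1075 lower (7.79%) at 3000 ppm. The 4 libraries at 3000 ppm all lay above the 4 at 1500 ppm for 592 genes (4.29%) and all below for 537 (3.89%). DESeq2 called 55 genes, 16 higher and 39 lower. By contrast, 895 genes (6.48%) were called in the same fit between 1500 ppm and control feed, 599 higher (4.34%) and 296 lower (2.14%). Without 67C the count stayed at 0, and 1002 genes had an unadjusted p under 0.05.

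When the 8 libraries were fitted alone, 4 of 13380 genes passed (0.0299%). Cd36 and Acot2 were higher at 3000 ppm (0.0149%), and Serpina12 and Gm20604 were lower (0.0149%). Cd36 encodes a fatty acid translocase of the cell surface, Acot2 a mitochondrial acyl-CoA thioesterase that frees fatty acids from coenzyme A, and Serpina12 the secreted serpin vaspin, a gene expressed more in male than female mouse liver. The calls were lost in this fit (0 genes) when any 1 of 40A, 60A, 72B, 67C, 71A or 9A was left out. There were 4 calls without 3A (Cd36, Acot2, Serpina12 and Gm15441) and 8 without 35A, of which Cd36, Serpina12 and Gm20604 were 3.

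**Figure D1:**
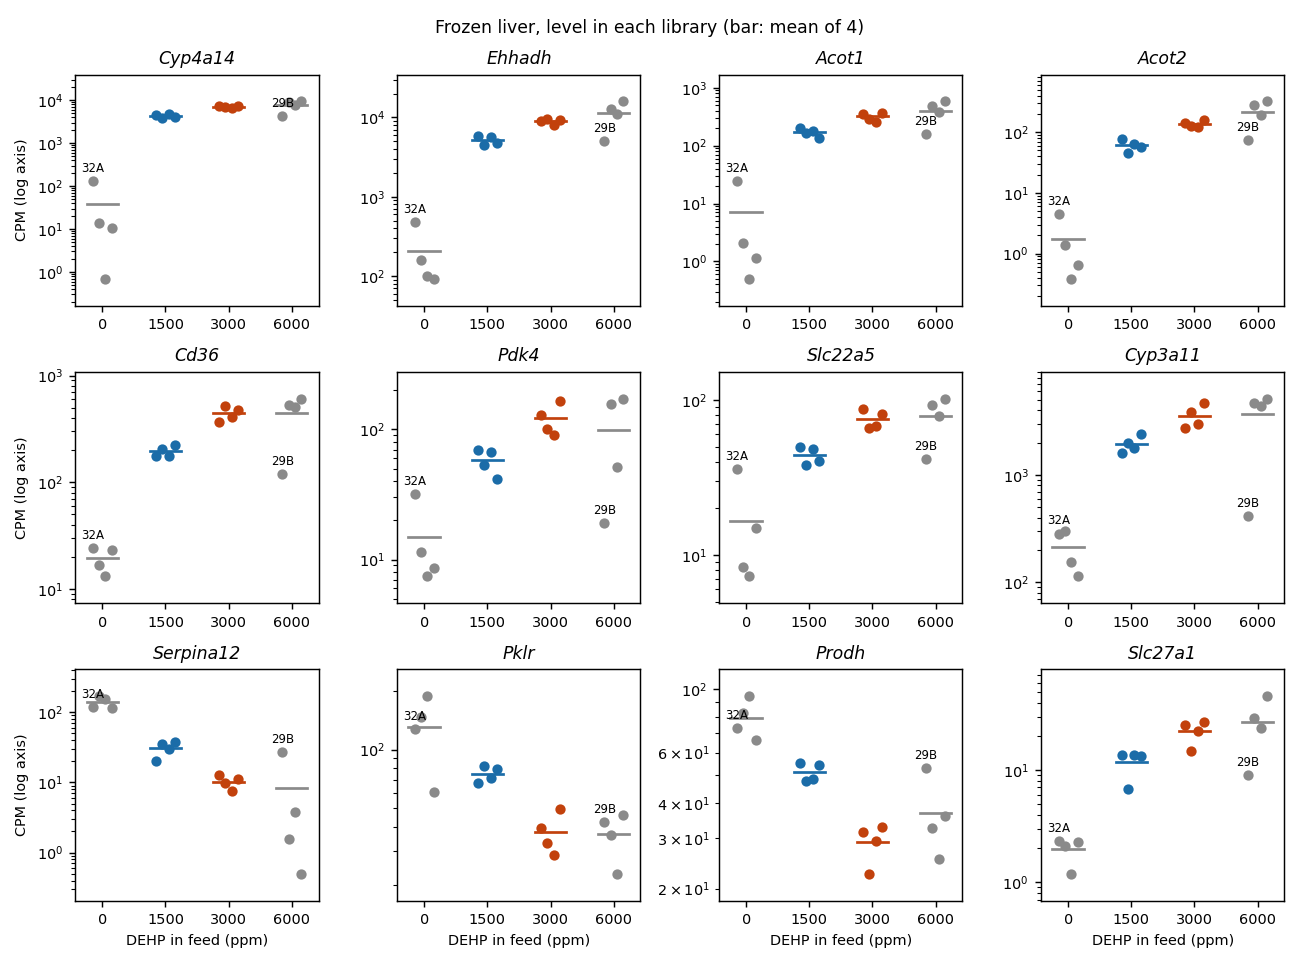
Level of 12 genes in each frozen library as CPM on a log axis, by DEHP dose in ppm, with the mean of 4 as a bar. The 12 genes were picked for display, some after their values were seen, and blue (1500 ppm) and orange (3000 ppm) points overlap in none of them. Control animal 32A and 6000 ppm animal 29B lie away from their groups for many of the PPARα targets.

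The sequence before the RefSeq start of these genes is shown because PPARα acts through DNA sites near its targets. The classic site is a DR1, the motif AGGTCA repeated in the same direction with 1 base between. Capitals mark stretches that match DR1 with at most 2 mismatches on either strand, found in RefSeq promoter windows (GRCm38.p6, 250 bases before to 50 after the start). The 250 bases before the start are printed 5′ to 3′ on the gene's strand. For Cd36 this start lies inside the annotated span of the gene, downstream of its 5′ end.
Cd36, chr5:17835897-17836146, minus strand: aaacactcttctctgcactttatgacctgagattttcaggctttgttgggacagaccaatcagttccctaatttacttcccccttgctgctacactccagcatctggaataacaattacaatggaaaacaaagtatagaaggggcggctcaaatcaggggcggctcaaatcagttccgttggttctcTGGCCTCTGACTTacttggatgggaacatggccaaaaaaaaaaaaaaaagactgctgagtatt
Serpina12, chr12:104044444-104044693, minus strand: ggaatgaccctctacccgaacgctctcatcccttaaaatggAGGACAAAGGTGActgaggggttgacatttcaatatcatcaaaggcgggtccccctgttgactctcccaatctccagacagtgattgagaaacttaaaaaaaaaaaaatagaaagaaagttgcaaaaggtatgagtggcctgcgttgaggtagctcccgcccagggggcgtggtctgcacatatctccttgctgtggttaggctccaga
Acot2, chr12:83987611-83987860, plus strand: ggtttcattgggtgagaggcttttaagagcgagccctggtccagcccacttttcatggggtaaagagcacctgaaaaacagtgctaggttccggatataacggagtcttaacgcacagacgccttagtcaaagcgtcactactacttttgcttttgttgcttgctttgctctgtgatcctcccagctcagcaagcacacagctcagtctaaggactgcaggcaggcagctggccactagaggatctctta

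Each match holds 2 mismatches over both copies. It begins 63 bases before the start in Cd36 and 209 bases before it in Serpina12, a gene with less transcript at the higher dose. Acot2 has no match in this window. Of 32851 windows of all genes, 3.86% held such a match, 3.02% a DR4 (the same motif repeated with 4 bases between), 37.4% the exact motif CCAAT and 17.9% the exact motif TTTGAA, all counted on both strands. The rule set 28 genes to be described whatever their result; 18 of these had a window, and the DR1 matches in Cd36 and Serpina12 were the 2 among them.

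For Cd36 (chromosome 5, 17781690 to 17888801, minus strand, mm10), levels were 175, 205, 176 and 225 CPM at 1500 ppm in 3A, 40A, 60A and 72B. At 3000 ppm they were 370, 516, 405 and 476 CPM in 35A, 67C, 71A and 9A. All 4 libraries at the higher dose lay above all 4 at the lower one. The log2 difference was 1.18 ± 0.14 (SE, 4 animals per dose) in the fit of 8 libraries (edgeR adjusted p = 0.0331) and 1.18 ± 0.33 in the fit of 16 (adjusted p = 0.234), a 2.26-fold difference either way. Control livers held 13.1 to 24.3 CPM, so that Cd36 was already 3.34 log2 units higher at 1500 ppm than in controls. At 6000 ppm 3 livers held 512 to 607 CPM and 29B 119 CPM.

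Acot2 (chromosome 12, 83987861 to 83993873, plus strand) stood at 78.1, 44.9, 62.7 and 57.0 CPM at 1500 ppm and at 142, 127, 120 and 157 CPM at 3000 ppm. The groups did not overlap. The log2 difference was 1.17 ± 0.16 in the fit of 8 libraries (edgeR adjusted p = 0.0401) and 1.17 ± 0.44 in the fit of 16 (adjusted p = 0.253).

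Serpina12 (chromosome 12, 104028769 to 104044443, minus strand) had 114 to 170 CPM in controls. It stood at 20.1, 35.5, 29.6 and 37.3 CPM at 1500 ppm and at 12.6, 9.90, 7.49 and 11.2 CPM at 3000 ppm, without overlap. The log2 difference was -1.58 ± 0.20 in the fit of 8 libraries (edgeR adjusted p = 0.0401) and -1.58 ± 0.67 in the fit of 16 (adjusted p = 0.286). At 6000 ppm the livers spread from 0.498 CPM upward, with 29B the highest (27.02 CPM).

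Gm20604 (chromosome 12, 102741732 to 102758672, minus strand) had no counts in any library at 3000 ppm and 154 over the 4 libraries at 1500 ppm, at least 49.6-fold lower against a floor of 3 counts over the group. It overlaps Moap1, Gon7 and Gm28051 on the same strand, so its share of the reads depends on how RSEM divided them. In FFPE tissue of the same animals it was detected in 3 of 4 livers at 3000 ppm, at 2.26 to 3.20 CPM. At 1500 ppm the FFPE livers of 3A, 40A, 60A and 72B had 3.56, 0, 1.74 and 0 CPM.

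The spread within dose groups differed between the fits more than the difference itself did. For Cyp4a14, which encodes an omega-hydroxylase that oxidises the end of the fatty acid chain, levels were 4449, 3923, 4676 and 4075 CPM at 1500 ppm and 7204, 6946, 6740 and 7209 CPM at 3000 ppm. The 2 doses did not overlap, with SDs of 344 and 226 CPM. The log2 difference of 0.71 had an SE of 0.10 in the fit of 8 libraries and 0.79 in the fit of 16. Controls ranged from 0.688 to 131 CPM, the last in 32A, and the 6000 ppm group from 4294 CPM in 29B to 9499 CPM. Without 32A and 29B the SE was 0.44, and 1 gene (Cd36) passed in the fit of 14 libraries (edgeR adjusted p = 0.0324).

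**Figure D2:**
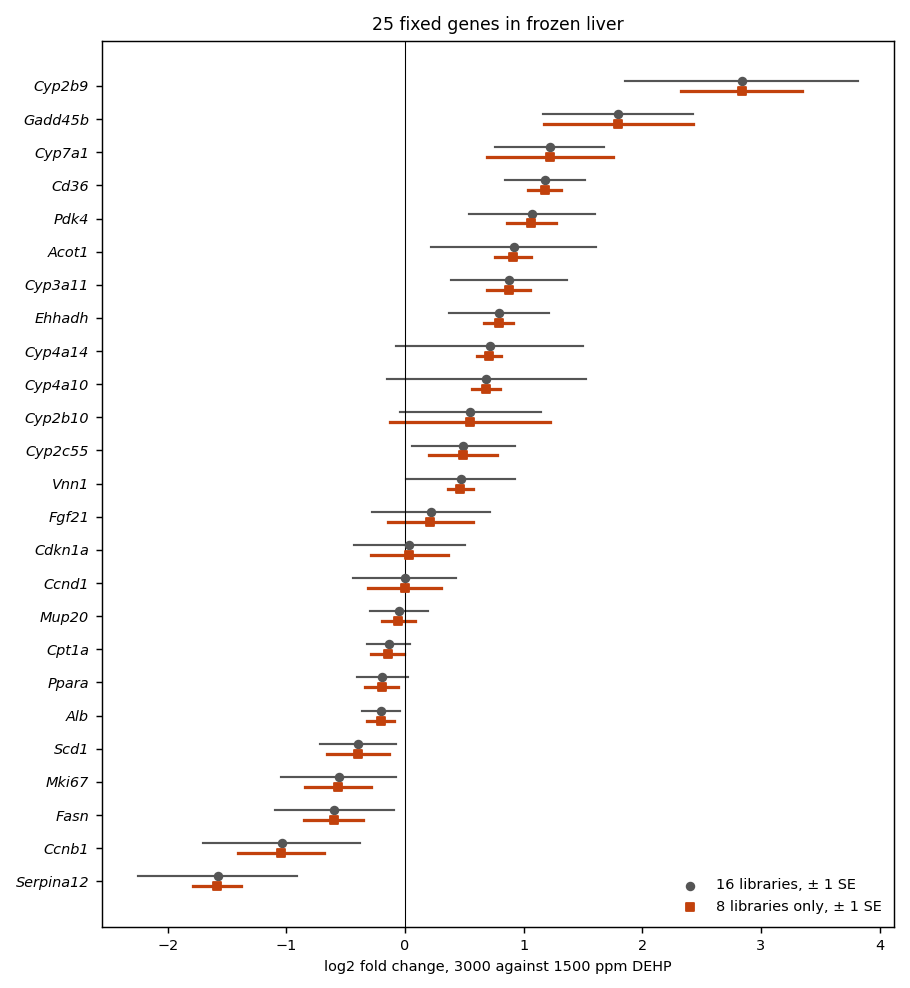
Log2 fold change of 3000 against 1500 ppm for 25 genes described whatever their result, with 1 SE to each side, from the fit of all 16 frozen libraries (grey) and of the 8 compared libraries alone (orange squares). The estimates nearly coincide, and the bars of Cyp4a10, Cyp4a14, Acot1, Ehhadh, Cd36, Pdk4 and Vnn1 are far shorter in the fit of 8.

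The receptor itself did not pass the test. Ppara transcript stood at 316, 401, 390 and 464 CPM at 1500 ppm and 361, 272, 376 and 367 CPM at 3000 ppm, overlapping, with a log2 difference of -0.19 (95% interval -0.64 to 0.26). Its coactivator Ppargc1a, named after its values were seen like every gene below outside the 28, stood at 10.6 to 18.5 CPM at 1500 ppm and 5.66 to 9.79 CPM at 3000 ppm. Its log2 difference was -0.77 ± 0.27 (edgeR adjusted p = 0.237).

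Of 97 tested genes in 5 lists of PPARα targets, 68 were called higher and 2 lower between 1500 ppm and control feed (4.34% and 2.14% of all genes). Between 3000 and 1500 ppm 0 were called (0% of all genes). Their median log2 difference was 1.02 in the first step and 0.164 in the second, where the median of all genes tested was -0.00014. In the second step 72 of the 97 had a difference above 0 and 22 had all 4 libraries at 3000 ppm above all 4 at 1500 ppm (4.29% of all genes did), 3 the reverse (3.89% of all genes). At an unadjusted p under 0.05 there were 11 higher and 3 lower, against 7.59% and 7.79% of all genes. The 11 became 5 without 40A or 35A, 6 without 60A, 72B or 9A, and 9 without 3A, 67C or 71A. The 2 steps share the 1500 ppm libraries.

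Of 10 tested Cyp4 genes 0 were higher and 2 lower at an unadjusted p under 0.05 (7.59% and 7.79% of all genes). The doses did not overlap for 2 on the higher side and 2 on the lower (4.29% and 3.89% of all genes). The median log2 difference was 0.093. Among the omega-hydroxylases, Cyp4a10 resembled Cyp4a14. It stood at 3057, 2382, 3041 and 2625 CPM at 1500 ppm and 4856, 4027, 4403 and 4583 CPM at 3000 ppm, with a log2 difference of 0.69 ± 0.84 in the fit of 16 libraries (edgeR adjusted p = 0.718) and 0.68 ± 0.12 in the fit of 8 (adjusted p = 0.106). Cyp4a10 has near-identical neighbours in its cluster, so the division of reads between them is uncertain. A pair of Cyp4f genes, whose products oxidise leukotrienes and long fatty acids, lay on the other side. Cyp4f14 had 88.8 to 104 CPM at 1500 ppm and 69.1 to 86.0 CPM at 3000 ppm, and Cyp4f13 had 26.4 to 29.4 and 19.1 to 25.3 CPM, neither overlapping. Their log2 differences were -0.35 ± 0.16 and -0.27 ± 0.10 (edgeR adjusted p = 0.306 and 0.248).

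In peroxisomal oxidation, Ehhadh, the bifunctional enzyme that hydrates and then oxidises the chain, had 5808, 4541, 5593 and 4778 CPM at 1500 ppm and 8980, 9422, 8128 and 9362 CPM at 3000 ppm, without overlap. Its log2 difference was 0.79 ± 0.12 in the fit of 8 libraries (edgeR adjusted p = 0.0537) and 0.79 ± 0.42 in the fit of 16 (adjusted p = 0.371).

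Over the 21 tested peroxisomal genes the median log2 difference was 0.165. There were 3 genes at an unadjusted p under 0.05 on the higher side and 1 on the lower (7.59% and 7.79% of all genes), with 5 higher and 1 lower whose doses did not overlap (4.29% and 3.89% of all genes). The 3 became 0 without 60A, 72B, 35A or 9A, 1 without 3A or 40A and 2 without 67C. The higher ones at that threshold were Acot3, Acot4 and Crot. Acot3 and Acot4, peroxisomal thioesterases, stood at 11.2 to 27.6 and 29.5 to 46.5 CPM at 1500 ppm and at 39.3 to 84.3 and 58.0 to 94.8 CPM at 3000 ppm. Crot, which moves shortened chains out of the peroxisome as carnitine esters, had 1245 to 1368 CPM at 1500 ppm and 1635 to 1964 CPM at 3000 ppm. None of these 3 genes passed after adjustment in edgeR (adjusted p from 0.293 to 0.317).

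In mitochondrial oxidation, 5 of 29 tested genes had an unadjusted p under 0.05 on the higher side and 0 on the lower (7.59% and 7.79% of all genes). The doses did not overlap for 9 genes, all higher at 3000 ppm (4.29% of all genes), and the median log2 difference was 0.199. The 5 became 2 without 40A, 35A, 71A or 9A, 3 without 60A or 72B, and 4 without 67C. Acot1, a cytosolic thioesterase in the same cluster on chromosome 12 as Acot2, stood at 136 to 198 CPM at 1500 ppm and at 358, 292, 257 and 372 CPM at 3000 ppm, a log2 difference of 0.91 ± 0.15 in the fit of 8 libraries (edgeR adjusted p = 0.0892). The Acot genes are close copies of each other, so reads can be divided between them. Slc22a5, the carnitine importer, had 50.1, 38.0, 48.1 and 40.2 CPM at 1500 ppm and 87.4, 66.0, 67.9 and 80.7 CPM at 3000 ppm. Hadhb, a subunit of the trifunctional protein, had 349 to 430 and 549 to 659 CPM, and Acadm, the medium-chain dehydrogenase, 368 to 438 and 500 to 645 CPM.

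Of the carnitine shuttle enzymes, the liver form overlapped between the doses and the muscle form did not. Cpt1a, the liver form, which commits fatty acids to mitochondria, stood at 340, 415, 411 and 539 CPM at 1500 ppm and 420, 341, 399 and 389 CPM at 3000 ppm. The log2 difference was -0.14 (95% interval -0.52 to 0.24). Cpt1b, the muscle form of the shuttle enzyme and scarce in liver, stood at 7.09 to 12.8 CPM at 1500 ppm and 13.4 to 24.1 CPM at 3000 ppm, without overlap.

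Of 16 tested genes of fatty acid uptake, binding and activation, Cd36 and Slc27a1 were the 2 without overlap, both higher (4.29% of all genes). Of 24 lipid droplet and triglyceride genes 1 was, Mogat1, near the share of all genes. Slc27a1, a transport protein that also activates fatty acids, had 13.6, 6.79, 13.5 and 13.4 CPM at 1500 ppm and 25.2, 14.7, 22.1 and 26.8 CPM at 3000 ppm, a log2 difference of 0.90 ± 0.35 (edgeR adjusted p = 0.262). Mogat1, a monoacylglycerol acyltransferase at 0 to 0.111 CPM in controls, stood at 6.26 to 10.1 CPM at 1500 ppm and 12.1 to 17.2 CPM at 3000 ppm. The lipid droplet and triglyceride list as a whole had a median of -0.007, which was 0.010 with DESeq2 size factors and 0.223 with GC offsets. At an unadjusted p under 0.05 it had 1 gene higher and 3 lower (7.59% and 7.79% of all genes). With GC offsets it had 3 higher and 1 lower (4.41% and 4.15%).

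Other PPARα markers varied. Of 21 tested in that list 1 was higher and 0 lower at an unadjusted p under 0.05 (7.59% and 7.79% of all genes). The doses did not overlap for 4, all higher (4.29% of all genes), and the median log2 difference was 0.107. Pdk4, the kinase that shuts off pyruvate dehydrogenase, stood at 69.2, 53.2, 67.6 and 41.5 CPM at 1500 ppm and 130, 100.0, 91.1 and 165 CPM at 3000 ppm, without overlap. Its log2 difference was 1.06 ± 0.20 in the fit of 8 libraries (edgeR adjusted p = 0.137). Vnn1, a pantetheinase, had 151, 157, 188 and 152 CPM at 1500 ppm and 234, 204, 236 and 223 CPM at 3000 ppm, also without overlap, and a log2 difference of 0.47 ± 0.11 (adjusted p = 0.212 in the same fit). Fgf21, a fasting hormone, overlapped at 2.29 to 8.00 and 3.41 to 8.36 CPM, with a log2 difference of 0.22 (95% interval -0.83 to 1.27).

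The column names open with 1 of 5 codes, spread unevenly over the doses. What the codes stand for is not given in the sources used here. Code V12161 held both doses, with 40A and 60A at 1500 ppm and 71A at 3000 ppm. Within it, the log2 ratio of 71A to the mean of 40A and 60A was 0.65 for Cyp4a14, 0.70 for Cyp4a10, 0.68 for Ehhadh, 1.09 for Cd36, 1.16 for Acot2 and -2.12 for Serpina12. These ratios within the code were not tested. V12161 also held 29B at 6000 ppm, and code H36399 held control 32A beside 35A at 3000 ppm. Both 29B and 32A enter the estimate of the code term, and how far they moved it was not tested. With the code as a term in the fit of 16 libraries, the differences were 0.04 ± 0.92 for Cyp4a14, -0.01 ± 0.96 for Cyp4a10, 0.44 ± 0.51 for Ehhadh, 0.88 ± 0.39 for Cd36, 0.76 ± 0.52 for Acot2 and -1.03 ± 0.96 for Serpina12. The list medians were then 0.02 for peroxisomal and 0.06 for mitochondrial oxidation, -0.05 for the Cyp4 genes, -0.04 for fatty acid uptake 0.17 for CAR and PXR targets and -0.666 for cell cycle genes. In that fit 0 genes were called and 1028 had an unadjusted p under 0.05, 2.82% of all genes on the higher side and 4.63% on the lower. Of the 97 genes of the PPARα target lists 3 were then higher and 0 lower at that threshold.

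Among CAR and PXR targets, 6 of 27 tested genes had an unadjusted p under 0.05 on the higher side and 0 on the lower (7.59% and 7.79% of all genes). The doses did not overlap for 5, all higher at 3000 ppm (4.29% of all genes), and the median log2 difference was 0.293. The 6 became 3 without 67C (2.6% of all genes higher there), 3 with GC offsets (4.41%), and 2, with 1 lower, with the column code as a term. With another library left out they were 4 to 7. Cyp3a11, the main Cyp3a enzyme of mouse liver, stood at 1597, 1997, 1768 and 2401 CPM at 1500 ppm and 2709, 3858, 3004 and 4674 CPM at 3000 ppm. Its log2 difference was 0.87 ± 0.18 in the fit of 8 libraries (edgeR adjusted p = 0.176) and 0.88 ± 0.49 in the fit of 16. At 6000 ppm 29B had 412 CPM and the other livers 4392 to 5125 CPM.

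Cyp2b9 had 0.717, 0.805, 1.78 and 3.79 CPM at 1500 ppm and 8.81, 10.4, 8.56 and 24.8 CPM at 3000 ppm, or 182 and 1197 counts in all, against 3 counts in the controls. This enzyme is expressed more in female than male mouse liver. The log2 difference was 2.84 ± 0.98 in the fit of 16 libraries (edgeR adjusted p = 0.237) and 2.84 ± 0.51 in the fit of 8 (adjusted p = 0.117). Its relative Cyp2b10, a standard CAR target, was near the detection limit at both doses, at 0 to 1.23 and 0.675 to 0.945 CPM. In FFPE tissue its doses did not overlap, at 0 to 0.332 and 0.468 to 1.54 CPM. Cyp2c55 overlapped at 2.06 to 3.38 and 2.20 to 5.57 CPM. Cyp2b and Cyp2c genes have close copies, and the division of reads between them is uncertain.

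Sex-biased genes beyond Cyp2b9 and Serpina12 were few. Of 9 tested female-biased genes 2 (Cyp2b9 and Acot3) had an unadjusted p under 0.05, both higher (7.59% of all genes), and of 19 male-biased genes 1 (Serpina12), lower (7.79%). The 2 became 1 without 3A, 40A, 60A, 72B, 35A or 9A. The 1 became 0 without 67C or 71A, 2 without 3A or 60A and 4 without 35A. Mup20, a male urinary protein gene, overlapped at 3448 to 3937 and 2980 to 4301 CPM, with a log2 difference of -0.05 (95% interval -0.57 to 0.46).

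Most genes of bile acid and lipid synthesis overlapped between the doses. Of 22 bile acid genes 1 was higher and 1 lower at an unadjusted p under 0.05 (7.59% and 7.79% of all genes), with a median log2 difference of -0.081. Of 20 genes of fatty acid synthesis and desaturation 0 were higher and 3 lower (7.59% and 7.79% of all genes), with a median of -0.284. The 3 became 1 without 60A or 67C and 5 without 72B. Pklr and Thrsp were the 2 of that list without overlap, both lower (3.89% of all genes). Cyp7a1, which controls the classic route from cholesterol to bile acids, had 9.65, 4.78, 4.99 and 22.01 CPM at 1500 ppm and 12.8, 49.8, 13.3 and 21.4 CPM at 3000 ppm, overlapping. The log2 difference of 1.22 was 0.585 without 67C. Fasn and Scd1, of fatty acid synthesis and desaturation, overlapped, with log2 differences of -0.60 (95% interval -1.65 to 0.46) and -0.40 (-1.07 to 0.27). Pklr, the liver pyruvate kinase, did not overlap, at 67.5, 82.3, 71.2 and 79.4 CPM and 39.3, 33.2, 28.5 and 49.7 CPM. Its log2 difference was -1.001 ± 0.16 in the fit of 8 libraries (edgeR adjusted p = 0.0696). Thrsp, a lipogenic regulator, stood at 70.1 to 93.8 and 29.5 to 58.6 CPM.

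Amino acid and urea genes and secreted proteins of the hepatocyte stood mostly on the lower side. Of 36 amino acid and urea genes 12 had an unadjusted p under 0.05, all lower (7.79% of all genes), and 6 had doses that did not overlap, all lower (3.89% of all genes). The median log2 difference was -0.228. Prodh, which starts proline breakdown, stood at 55.3, 47.7, 48.4 and 54.3 CPM at 1500 ppm and 31.5, 22.5, 29.3 and 32.8 CPM at 3000 ppm. Its log2 difference was -0.83 ± 0.13 in the fit of 8 libraries (edgeR adjusted p = 0.0537) and -0.75 ± 0.10 with GC offsets there, where it passed (adjusted p = 0.0366). Got1, the cytosolic aspartate aminotransferase, had 89.4, 103, 116 and 212 CPM and 63.8, 25.02, 61.7 and 84.0 CPM. Ass1, of the urea cycle, had 1082 to 1500 and 698 to 967 CPM.

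Of 29 genes for secreted hepatocyte proteins 12 had an unadjusted p under 0.05, all lower (7.79% of all genes), 8 of them apolipoproteins or transthyretin, and the median log2 difference was -0.31. Apoa1, of high-density lipoprotein, stood at 3513 to 4478 CPM at 1500 ppm and 2062 to 3400 CPM at 3000 ppm, and Apoc2, the cofactor of lipoprotein lipase, at 153 to 201 and 85.5 to 146 CPM. In both, 67C was the lowest library. Alb overlapped, with a log2 difference of -0.20 (95% interval -0.54 to 0.14). With GC offsets the median of the secreted list was -0.209 with 6 genes lower, and without 67C it was -0.246 with 5. The secreted list also had 5 genes lower without 72B or 71A. For the amino acid list the medians with GC offsets and without 67C were -0.144 and -0.15, with 6 and 7 genes lower, and without another library 8 to 15 were lower.

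Heat shock genes stood on the higher side: 6 of 16 had an unadjusted p under 0.05, all higher (7.59% of all genes), 4 did not overlap (4.29%), and the median log2 difference was 0.444. Hspb1, a small chaperone, stood at 11.4, 8.30, 11.1 and 6.67 CPM at 1500 ppm and 20.2, 28.1, 17.8 and 14.9 CPM at 3000 ppm, a log2 difference of 1.12 ± 0.26 (edgeR adjusted p = 0.234). Hsp90aa1 had 314 to 565 and 629 to 1544 CPM, the last in 67C. Dnajb1, a cochaperone, stood at 261 CPM in 67C and at 15.9 to 40.0 CPM in the other livers at that dose. The median of the list was 0.224 without 67C, with 2 genes at that threshold, and 0.491 with GC offsets, with 4. Without 72B there were 3.

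**Figure D3:**
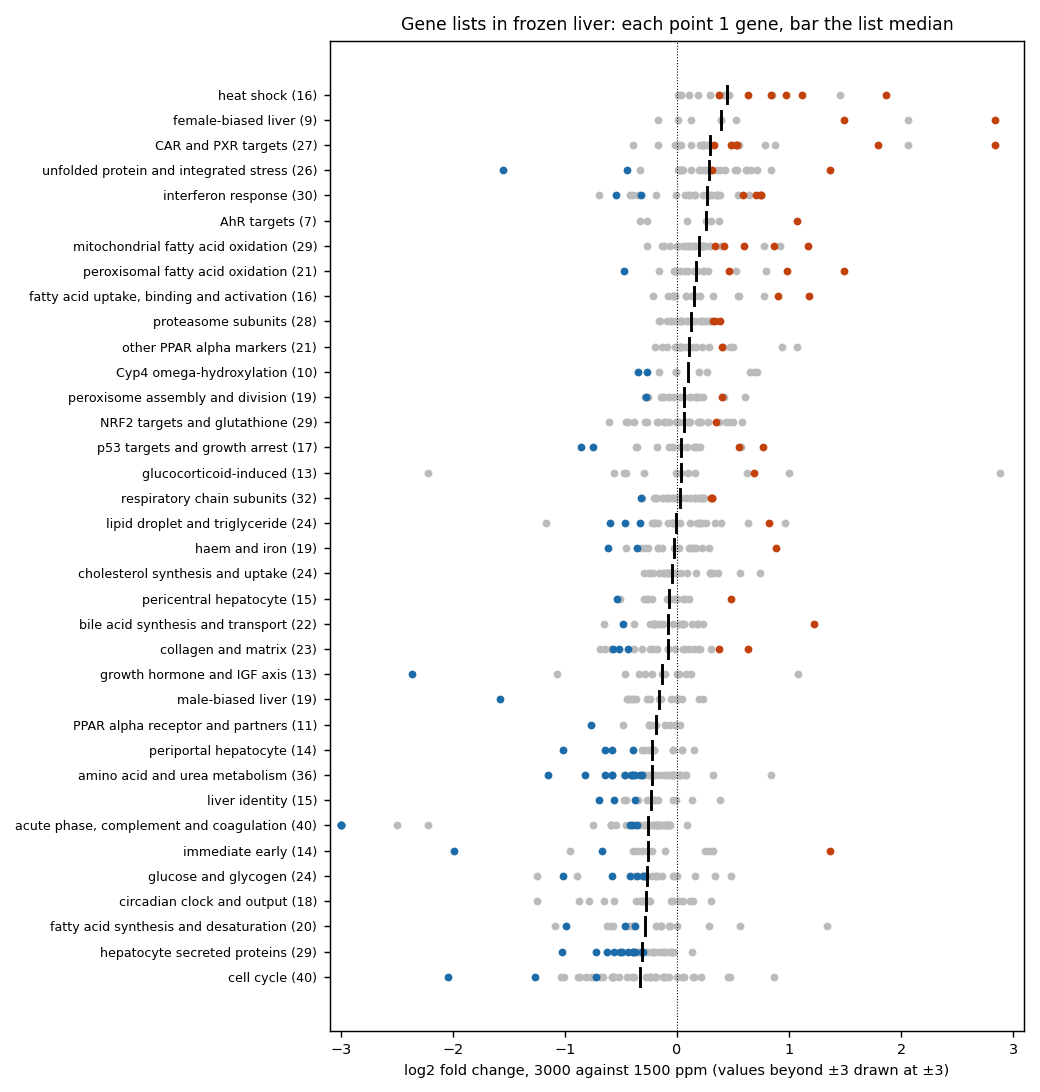
Log2 fold change of 3000 against 1500 ppm for each tested gene of 36 lists, with the number tested in parentheses and the median as a bar. Orange and blue points had an unadjusted edgeR p under 0.05, grey points did not, and no point passed after adjustment; the medians run from -0.332 (cell cycle) to 0.444 (heat shock).

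Ccnb1 and Mki67, both proliferation genes, had low levels at both doses. The cell cycle list had a median log2 difference of 1.11 between 1500 ppm and control feed and of 0.788 between 6000 and 3000 ppm. Between 3000 and 1500 ppm the median was -0.332. Of the 40 genes, 3 had an unadjusted p under 0.05 there, all lower (7.79% of all genes were lower at that threshold). The doses did not overlap for 5 on the lower side (3.89% of all genes) and for Pcna on the higher (4.29%). The 3 became 0 without 67C, without 3A (median -0.104) or with GC offsets, 1 without 35A, 5 without 72B, and 9 with the column code as a term (median -0.666). Ccnb1, the cyclin of mitotic entry, had 3.44, 2.67, 2.24 and 2.50 CPM at 1500 ppm and 0.441, 1.77, 1.71 and 1.22 CPM at 3000 ppm, or 248 and 122 counts in all. The doses did not overlap, and the log2 difference was -1.04 (95% interval -2.43 to 0.35). Mki67, a marker of cycling cells, overlapped at 9.61 to 22.3 and 5.54 to 12.1 CPM. Ccnd1 and Cdkn1a, which drive and arrest the early cycle, differed by -0.00 (95% interval -0.93 to 0.92) and 0.04 (-0.94 to 1.02). Gadd45b, a stress gene induced by CAR, had 0.101 to 0.526 CPM at 1500 ppm and 0.438 to 2.34 CPM at 3000 ppm, the highest in 67C, and its log2 difference of 1.797 was 1.01 without that library.

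The second dose step was then set against the first in the fit of 16 libraries. For 9 of 13802 genes (0.0652%) the step from 1500 to 3000 ppm differed from the step from 0 to 1500 ppm, and in all 9 the second was the smaller or the opposite one. Since both steps share the 1500 ppm libraries, noise in those libraries moves the 2 in opposite directions. The steps were compared on the log2 scale, where equal rises in CPM give a smaller second step. A smaller second step there does not by itself show that the response levelled off. Among the 9 were Mogat1, Gstt2, Rad51l1, Serinc2, Sema5b, Abhd1, Rogdi and Arhgef37. Gstt2 encodes a glutathione transferase, Serinc2 a membrane protein and Rad51l1 a recombination factor annotated as Rad51b.

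Among these, Rad51l1 stood at 0.483 to 1.47 CPM in controls, 20.97 to 25.2 CPM at 1500 ppm and 30.9 to 37.7 CPM at 3000 ppm. Its log2 step was 4.90 and then 0.55 (edgeR adjusted p of the difference 0.00239). Serinc2 stood at 2.33 to 4.43, then 16.2 to 21.7, then 13.8 to 20.8 CPM, with steps of 2.55 and -0.10 (adjusted p = 0.0026). Mogat1 had steps of 7.34 and 0.82 (adjusted p = 0.0103). Arhgef37 and Rogdi had their highest level of the first 3 doses at 1500 ppm: 4.98 to 6.35 CPM, 8.12 to 11.5 CPM and 3.90 to 5.61 CPM for Arhgef37, and 2.71 to 3.58, 8.10 to 10.6 and 3.90 to 7.74 CPM for Rogdi. The second step of neither passed by itself (adjusted p = 0.234 for both). In FFPE tissue the second step of Rogdi was 0.01.

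This count depended on single libraries. It was 114 without control 32A, whose Cyp4a14 level was 131 CPM, and 42 without 29B. It was 3 without 45C, 3A, 60A or 71A, namely Mogat1, Rad51l1 and Serinc2 each time, and 5 without 75A or 67C. With the column code as a term it was 0, with 1617 genes at an unadjusted p under 0.05 and a smallest adjusted p of 0.0615, and DESeq2 called 126.

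FFPE tissue of the same animals gave a second set of libraries for the comparison, though not new animals. In the fit of the 16 FFPE libraries 0 of 13581 genes were called (0%), 653 (4.81%) had an unadjusted p under 0.05, and DESeq2 called 1. With the 8 FFPE libraries at these doses fitted alone, Acot1 and Acot2 passed (2 of 12953, 0.0154%). With GC offsets in that fit, an alternative chosen after seeing the data, 10 of 11300 genes passed, all higher at 3000 ppm: Acot1, Acot2, Acot3, Cd36, Ehhadh, Cyp4a10, Cyp4a14, Slc27a1, Slc22a5 and Gm15441. Of these, 9 belong to the PPARα target lists.

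Acot2 stood at 64.8, 59.4, 53.6 and 58.0 CPM in FFPE tissue at 1500 ppm and at 164, 117, 129 and 164 CPM at 3000 ppm. Cd36 had 119, 124, 92.4 and 155 CPM and 286, 209, 236 and 315 CPM. Cyp4a14 had 2998 to 3319 and 4576 to 5584 CPM, and Ehhadh 3319 to 4047 and 5945 to 6457 CPM. Serpina12 had 17.3 to 35.0 CPM at 1500 ppm and 2.94 to 8.97 CPM at 3000 ppm, a log2 difference of -2.002 ± 0.33 with GC offsets (edgeR adjusted p = 0.0587). None of these 5 overlapped between doses in either preparation. Over all genes in FFPE tissue, 1.77% were higher and 2.01% lower at 3000 ppm without overlap.

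The dose difference itself was compared between preparations, with the animal as a block. In 0 of 14065 genes (0%) did the frozen and FFPE differences differ after adjustment in edgeR, 313 genes (2.23%) had an unadjusted p under 0.05, and DESeq2 called 0. Over 13445 genes tested in both, 75.8% had the same sign, and over the 2098 with an unadjusted p under 0.05 in frozen tissue 94.2% did. The tissue comes from the same animals, so differences between animals unrelated to dose are shared by both sets. In both preparations the difference also followed transcript GC content (Spearman -0.52 in frozen and -0.453 in FFPE tissue). Whether the signs match with that trend removed was not tested.

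**Figure D4:**
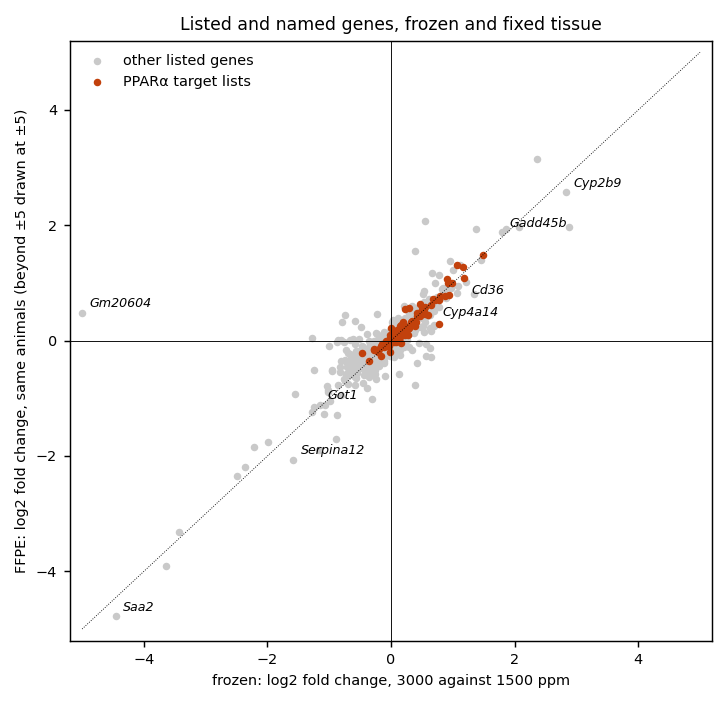
Log2 fold change of 3000 against 1500 ppm in frozen tissue (x axis) and in FFPE tissue of the same animals (y axis) for listed and named genes, with PPARα target lists in orange, values beyond 5 drawn at 5 and the dotted line marking equal values. Cyp2b9, Gadd45b and Cd36 lie at the upper right, Serpina12 and Saa2 at the lower left, and Gm20604 is far from the line.

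Base composition moved with the comparison. Across 11926 genes with a GENCODE transcript, the log2 difference between 3000 and 1500 ppm had a Spearman correlation of -0.52 with transcript GC content in frozen tissue, -0.408 without 67C and -0.453 in FFPE tissue. This is a description over genes of the same libraries. The median difference was 0.183 in the fifth of genes lowest in GC and -0.267 in the highest. Between 1500 ppm and control feed these medians were -0.05 and -0.0216, and between 6000 and 3000 ppm they were -0.195 and 0.269. Genes at an unadjusted p under 0.05 between 3000 and 1500 ppm had a median GC of 43% on the higher side and 56% on the lower, against 49.3% for all. With GC offsets per library, 1021 of 11926 genes had an unadjusted p under 0.05 (4.41% higher and 4.15% lower), against 2122 of 13802 without. The list medians of mitochondrial (0.21) and peroxisomal oxidation (0.205) and of CAR and PXR targets (0.311) were then at least as large as before. Other medians shrank, among them amino acid and urea genes (-0.144 against -0.228), glucose and glycogen (-0.199 against -0.272) and female-biased genes (0.272 against 0.395). With the offsets 3 mitochondrial genes were higher at an unadjusted p under 0.05 (4.41% of all genes), against 5 without (7.59%).

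**Figure D5:**
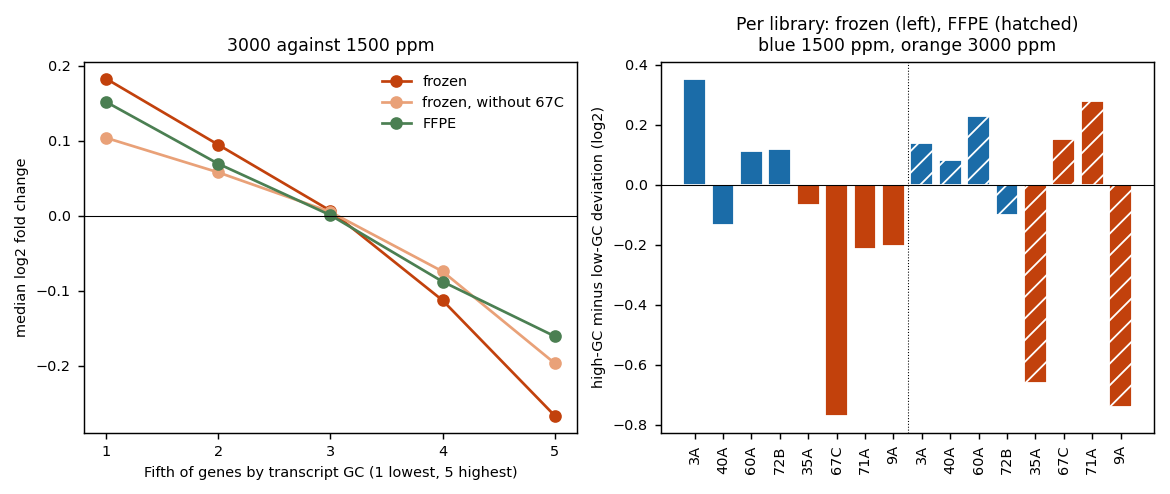
Left: median log2 fold change of 3000 against 1500 ppm in 5 equal groups of genes by transcript GC content, for frozen tissue, frozen tissue without 67C, and FFPE tissue. Right: median deviation of GC-rich minus GC-poor genes in each library, on the log2 scale, where 67C is lowest in frozen tissue and 35A and 9A in FFPE tissue.

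After GC offsets the fit of the 8 frozen libraries called 5 of 11612 genes: Cd36 and Acot2 higher, and Serpina12, Prodh and Gm20604 lower. Cd36 had a log2 difference of 0.97 ± 0.10 there (edgeR adjusted p = 0.00798) and Acot2 of 1.32 ± 0.14 (adjusted p = 0.00798). Slc22a5 (0.79 ± 0.12, adjusted p = 0.0635), Ehhadh (0.74 ± 0.11, 0.0677) and Cyp4a14 (0.64 ± 0.10, 0.0736) came next and did not pass.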

How the data were processed

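Total RNA depleted of ribosomal RNA was made into stranded libraries from 100 ng, per the labels' protocols. The deposited DEHP table holds expected counts per gene (18877 genes) that the authors made with RSEM after STAR 2.4 alignment to mm10 and CASAVA base calling, per the submitters' processing notes. They are not normalised, and were rounded here to whole numbers. No column lacked a sample. A second deposited count table, without frozen 40A, was an alternative. Other tables were not used here.

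The 16 frozen libraries were fitted in edgeR 4.0.16 (R 4.3.3) by dose, scaled by TMM after filterByExpr at a minimum count of 10, and tested by quasi-likelihood, 2-sided. Called means a Benjamini-Hochberg adjusted p under 0.05 over all genes tested. Fits of 8 libraries, FFPE fits, DESeq2 1.42.0, other scalings and filters, the undefined code that opens each column name as a term, thinning and leaving out libraries were alternatives. GC offsets (a lowess trend on transcript GC content per library, GENCODE M21), fits without 32A and 29B, the 8 FFPE libraries alone, and leaving out libraries from the fit of 8 were added after seeing the data. The members of the comparison, the gene lists and the genes named were chosen with earlier results of these data known. The rule for naming genes took called genes of mean log2 CPM of at least 2 whose doses did not overlap (up to 10 per direction), the 2 called members of smallest adjusted p per list, and always 28 fixed genes; with 0 calls, it left the 28, and other genes were chosen after their values were seen. Some genes, 3 of the 28 among them, are not reported here.

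Replicate numbers in the labels of treated livers did not pair animals: same-numbered libraries correlated at -0.354 to 0.159 over 9581 genes. In data simulated for this comparison, the fit of 16 libraries recovered 84% of 2-fold and 97% of 4-fold changes (8 false calls, 13680 genes). The fit of 8 recovered 83% and 97% (13 false calls, 13404 genes). The GC offsets were not simulated. These shares are not the power of the real fits. In the real data Cd36, Acot2 and Serpina12 differed more than 2-fold and passed in the fit of 8 but not of 16. The lack of calls in the fit of 16 therefore does not show that 2-fold changes were absent. A floor of 3 counts covers counting error alone.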

Additional observations from a re-analysis of the deposited data

Results flagged for a closer look

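Within dose groups of 4, 75 groups of named genes were searched for a library far from the others, and 5 had a gap to the nearest library above Dixon's 95% critical value, as a share of the group's range; chance flags about 1 in 20 groups. Ppara in 67C was the lowest at 3000 ppm, with a gap of 0.852 of the range (272 CPM against 361 to 376). Vnn1 in 60A was the highest at 1500 ppm, with a gap of 0.849 (188 CPM against 151 to 157). Cyp2b9 in 9A was the highest at 3000 ppm, with a gap of 0.885 (24.8 CPM against 8.56 to 10.4). Cdkn1a in 3A was the highest at 1500 ppm, with a gap of 0.88 (16.9 CPM against 6.94 to 8.14). Gadd45b in 67C was the highest at 3000 ppm, with a gap of 0.833 (2.34 CPM against 0.438 to 0.755).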

How the results depend on the processing

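The count of 0 genes called between 3000 and 1500 ppm in frozen liver held under stricter thresholds, other scalings and filters, the column code as a term, the second table and thinning. It was 55 with DESeq2, 4 with the 8 libraries alone, 5 with GC offsets there, and 1 without 32A and 29B. Leaving out 1 library gave 0 to 1 in the fit of 16 (1 without 64C, Gm20604) and 0 to 8 in the fit of 8. With the replicate number as a block over the 12 treated libraries it was 0, as without the block (1691 against 2076 genes at an unadjusted p under 0.05). The count of 9 for the second against the first step was 126 with DESeq2, 0 with the column code as a term, and 3 to 114 with a library left out. In FFPE tissue the count of 0 was 1 with DESeq2, 2 with 8 libraries alone and 10 with GC offsets there, and 0 with any library left out. For the comparison of preparations it was 0 in each alternative, no replicate block included (157 genes at an unadjusted p under 0.05).

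Of 1432 values of 35 named genes under 41 settings, 1371 kept direction and call, 18 gained a call and 43 changed sign. Ccnd1 was 0.0106 with DESeq2, 0.0116 with its size factors, 0.0156 with the column code as a term, 0.000167 in the 12 treated libraries, 0.111 in the second table, 0.00405 when thinned, and 0.0642 and 0.0677 with GC offsets in 16 and 8 libraries. Cdkn1a was -0.128 with the column code as a term, -0.079 without 72B and 35A and -0.0879 in the second table. With the column code as a term Fgf21 was -0.128, Cyp4a10 -0.00607 and Gstt2 -0.204. With GC offsets in 16 and 8 libraries Serinc2 was 0.157 and 0.155, and Abhd1 0.0551 and 0.0549. With 1 library left out of 16 or 8, Ccnd1 ranged from -0.406 to 0.162, Fgf21 from -0.0304 to 0.495, Cdkn1a from -0.266 to 0.44 and Mup20 from -0.17 to 0.0221. The cause was not tested. Depth limited Cyp2b10 (50 and 71 counts at the 2 doses), Gadd45b (28 and 96) and Gm20604.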

Other observations

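Of 40 genes of the acute phase, complement and coagulation 6 had an unadjusted p under 0.05, all lower (7.79% of all genes), and the median log2 difference was -0.257. Without 3A 1 was lower (median -0.142), without 9A 2 and without 67C 3. The doses did not overlap for 3 of the 40, all lower (3.89% of all genes): Serpina3n, a protease inhibitor (-0.45 ± 0.36), Itih4, an inter-alpha-trypsin inhibitor chain (-0.59 ± 0.31), and F12, coagulation factor XII (-0.39 ± 0.13). None of them passed in edgeR (adjusted p from 0.234 to 0.547).

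A few genes of inflammation were high in 1 animal. Saa1 and Saa2, serum amyloid genes that the liver makes in inflammation, stood at 754 and 681 CPM in 3A and at 6.97 to 21.2 CPM in the other livers at 1500 ppm, and at 4.85 to 22.1 CPM at 3000 ppm. The genes are close copies, so reads can be divided between them. Their log2 differences of -3.64 ± 1.51 and -4.45 ± 1.78 did not pass in edgeR (adjusted p = 0.279 and 0.270). Marco, a scavenger receptor of macrophages, stood at 26.6 CPM in 71A and at 0.464 to 1.86 CPM in the other 7 livers.

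Of 30 interferon response genes 4 were higher and 2 lower at an unadjusted p under 0.05 (7.59% and 7.79% of all genes), with a median log2 difference of 0.267. The 4 became 1 without 40A or 71A and 2 without 35A, and the 2 became 4 without 40A or 71A and 1 without 72B, 67C or 9A. Rsad2, an antiviral enzyme, stood at 6.36, 2.16, 7.46 and 9.48 CPM at 1500 ppm and 9.82, 11.1, 10.3 and 11.9 CPM at 3000 ppm. H2-K1, a class I antigen-presenting molecule, lay on the other side, at 391 to 489 and 349 to 358 CPM. Tfrc, the transferrin receptor, stood at 42.7, 50.5, 50.3 and 21.6 CPM and at 87.3, 102, 50.6 and 64.2 CPM. None of the 3 passed after adjustment in edgeR (adjusted p from 0.237 to 0.314).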
